A study of Mus musculus with 6 samples.

Results

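The retinal pigment epithelium (RPE) takes up shed photoreceptor outer segments every day and degrades them in its lysosomes. The genes described here build the membrane of that organelle: the vacuolar H+-ATPase (V-ATPase), ion channels, membrane glycoproteins and transporters. They are 40 genes fixed by name, taken from the 54532 genes of a deposited count table of mouse RPE, and 40 of the 40 were found in it. Of these, 20 encode V-ATPase subunits or accessory proteins and 20 encode other lysosomal membrane proteins. RNA was sequenced from the RPE of 3 wild-type (WT) mice and 3 Abca4-/- (Abca4KO) mice, 1 library per mouse, all sampled 5 h after light onset. WT animals came from the Jackson strain 129S1/SvlmJ and Abca4KO animals from the Jackson line Abca4tm1Ght/J, so line and genotype cannot be told apart. Animals of both groups carried the Leu450 variant of Rpe65 and were kept in 12-h cyclic light on a standard diet, and their age was not among the labels used.

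The V-ATPase pumps protons into lysosomes. Its V1 sector sits in the cytosol and hydrolyses ATP, and its V0 sector lies in the membrane and carries the protons. Chloride and cation channels balance the charge that the pump moves, the heavily glycosylated LAMP proteins line the membrane, and transporters release the products of digestion into the cytosol. Abca4 encodes a transporter that clears retinoids from photoreceptor discs and is also expressed in the RPE.

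No member passed the threshold of 0.05 on the adjusted p when 17340 genes were tested with edgeR's quasi-likelihood method, where 8 genes (0.0461%) passed in either direction and 0.0346% passed as higher in Abca4KO. The members nevertheless leaned one way: 35 of 40 (87.5%) had a positive log2 fold change (Abca4KO minus WT), against 47.8% of all genes tested, and their median was 0.11, against -0.01. At an unadjusted p under 0.05, 5 members (12.5%) were higher and 0 lower in Abca4KO, against 3.15% and 3.87% of all genes. They were Atp6v0e, Atp6v0d2, Lamp1, Cd63 and Atp6ap2. All 3 Abca4KO libraries lay above all 3 WT libraries in 9 members (22.5%), against 5.93% of all genes, and below them in 1 member (2.5%), Ostm1, against 6.85%. DESeq2 called 1 member, Atp6v0d2, among 114 genes (0.657%), and limma-voom with sample weights called 0 members among 31 genes (0.179%). Genes within the list are not independent of each other, so these counts describe the list and are not a test of it.

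**Figure D1:**
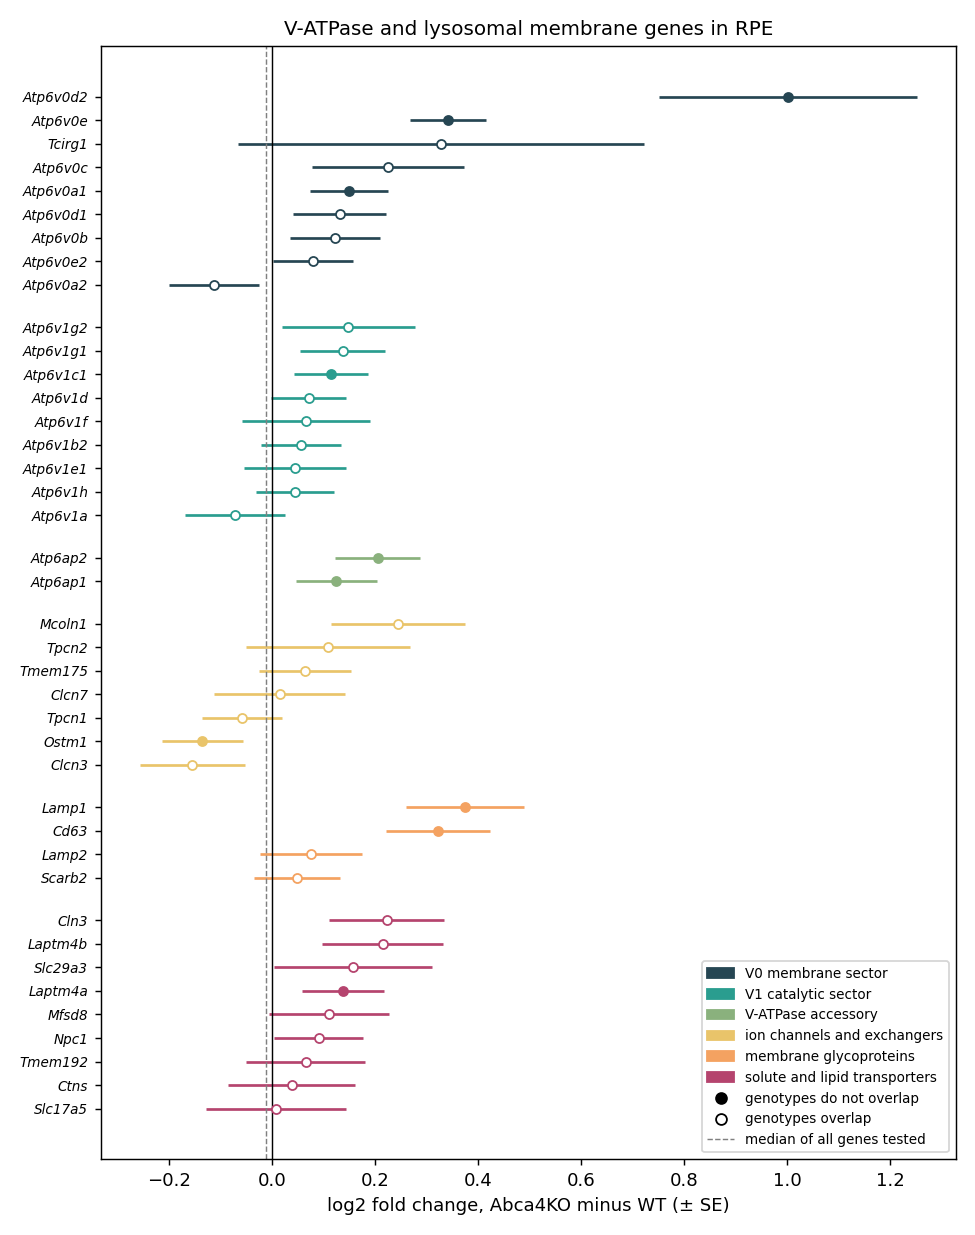
Log2 fold change of each of the 40 members (Abca4KO minus WT, x axis, bars are the standard error), grouped and coloured by role. Filled points are the 10 members whose genotypes do not overlap; most points lie to the right of the dashed line, the median of all 17340 genes tested (-0.01), and Atp6v0d2 lies farthest out at 1.00.

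Total counts were 17047286 to 19841307 per library. Levels are given as CPM, the count scaled to a common library size corrected by TMM (edgeR's trimmed mean method), and a count of 3 corresponded to 0.152 to 0.174 CPM. Abca4 itself measured 955, 932 and 968 CPM in the WT libraries and 32.6, 39.1 and 36.8 CPM in the Abca4KO libraries, so each library matched its label. RPE markers were abundant in every library (13 genes, 34350 CPM in sum in WT 2 and 39924 to 43536 CPM in the others). Of the 13, 1 lay higher and 2 lower in Abca4KO without overlap (7.69% and 15.4%, against 5.93% and 6.85% of all genes). Of the 6 libraries, 2 stood apart: WT 2 in 12 interferon response genes (3223 CPM in sum, against 226.2 to 375 in the others) and Abca4KO 1 in 10 rod photoreceptor markers (3421 CPM, against 695 to 1802). Without these 2 libraries 32 of 40 members were positive (median 0.13 on the log2 scale), 21 lay without overlap above WT and 5 below it (24% and 24.3% of all genes), and 1 member, Atp6v0d2, passed the threshold (190 genes in all, 1.09%). Because this is bulk RNA, fewer cells of a type and less RNA per cell cannot be told apart.

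Many lysosomal genes carry the E-box CACGTG near their start site, often within a longer element (TCACGTGA with a G before it and a C after it) to which the transcription factor TFEB binds. In the RefSeq promoter windows of build GRCm38.p6, which run from 250 bases before to 50 bases after a gene's start, 31 members had at least 1 window. CACGTG was present in 8 of these 31 genes (25.8%), against 8.09% of all 26994 genes with a window, and TCACGTGA, which contains it, in 6 (19.4%), against 1.13%. The longer element was in 1 member, Cln3 (3.23%), against 0.37% of all genes. These motifs read the same on both strands. Windows of 4 members are shown, since they hold CACGTG and differ in how their transcripts compared between the genotypes: Lamp1 and Atp6v0e, whose genotypes did not overlap, and Mcoln1 and Clcn7, whose genotypes did. Capitals mark CACGTG, extended to TCACGTGA where the flanking bases match.
Lamp1 (chr8:13158911-13159210, plus strand): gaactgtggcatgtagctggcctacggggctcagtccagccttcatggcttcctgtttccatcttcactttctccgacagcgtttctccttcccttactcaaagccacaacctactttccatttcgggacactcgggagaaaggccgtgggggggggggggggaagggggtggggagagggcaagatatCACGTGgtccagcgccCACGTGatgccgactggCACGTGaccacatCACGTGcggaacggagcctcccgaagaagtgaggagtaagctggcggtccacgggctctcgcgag
Atp6v0e (chr17:26676146-26676445, plus strand): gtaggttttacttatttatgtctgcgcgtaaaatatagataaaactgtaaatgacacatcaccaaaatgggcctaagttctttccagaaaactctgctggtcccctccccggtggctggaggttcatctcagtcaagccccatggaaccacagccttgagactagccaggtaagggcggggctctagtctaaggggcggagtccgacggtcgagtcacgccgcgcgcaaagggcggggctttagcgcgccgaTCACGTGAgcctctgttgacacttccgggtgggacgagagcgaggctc
Mcoln1 (chr8:3500269-3500568, plus strand): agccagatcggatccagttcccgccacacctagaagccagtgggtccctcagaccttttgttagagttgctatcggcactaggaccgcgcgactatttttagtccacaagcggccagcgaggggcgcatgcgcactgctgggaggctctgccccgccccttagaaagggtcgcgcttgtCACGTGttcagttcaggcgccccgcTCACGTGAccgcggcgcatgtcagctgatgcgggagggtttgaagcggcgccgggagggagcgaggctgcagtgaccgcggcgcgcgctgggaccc
Clcn7 (chr17:25133141-25133440, plus strand): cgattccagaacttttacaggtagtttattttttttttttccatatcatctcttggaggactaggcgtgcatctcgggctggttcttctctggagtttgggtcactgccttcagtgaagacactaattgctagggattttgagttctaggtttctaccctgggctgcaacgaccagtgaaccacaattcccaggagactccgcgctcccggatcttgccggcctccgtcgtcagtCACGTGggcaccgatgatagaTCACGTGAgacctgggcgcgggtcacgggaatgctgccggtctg
Lamp1 held 4 copies, whose leading bases lay at -61, -45, -28 and -15 from the start base (counted as 0). Mcoln1 had its copies at -71 and -45, Clcn7 at -15 and 7, and Atp6v0e at 3. The other members with CACGTG were Atp6v0b, Atp6v0d1, Atp6v1a and Cln3. Of the 8 members with CACGTG, 7 had a positive log2 fold change (median 0.18), and of the 23 members with a window but without CACGTG, 21 did (median 0.08). Over all genes tested, 47.8% were positive. The genotypes did not overlap in 2 of the 8 members with CACGTG (2 higher in Abca4KO), nor in 6 of the 23 without it (5 higher and 1 lower). Among all genes tested, 5.93% lay higher and 6.85% lower in Abca4KO without overlap. Whether members with and without CACGTG differed was not tested. A match is a run of letters and not a measured binding site.

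The 2 members with the smallest p, Atp6v0e and Atp6v0d2, belong to the V0 sector. Atp6v0d2 encodes the d2 form of the d subunit, a peripheral part of V0 that couples it to the stalk of V1, and this form is known from osteoclasts and macrophages. It measured 58.6, 43.8 and 42.6 CPM in WT replicates 1, 2 and 3, and 66.2, 131.6 and 92.3 CPM in Abca4KO replicates 1, 2 and 3. All Abca4KO libraries lay above all WT libraries, but Abca4KO 1 was close to WT 1 and the Abca4KO libraries spread widely. The means were 48.3 ± 8.93 and 96.7 ± 32.95 CPM (SD, n = 3 each), a 2.00-fold difference (log2 fold change 1.00, SE 0.25, adjusted p = 0.546). DESeq2 gave this gene an adjusted p of 0.00555 for the same log2 fold change of 1.00, and over the 14 other settings tried its adjusted p ran from 0.00555 to 0.981. Its log2 fold change stayed between 0.71 and 1.21 in those settings. The gene (ENSMUSG00000028238) lies on chromosome 4 from 19876841 to 19922605, minus strand, in mm10.

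Atp6v0e, on chromosome 17 from 26676396 to 26699644 (plus strand), encodes the small membrane-spanning e1 subunit. Its libraries held 99.4, 95.99 and 102.2 CPM in WT and 122.4, 121.7 and 132.8 CPM in Abca4KO. The genotypes stood well apart and the replicates of each were close together. The means were 99.2 ± 3.13 and 125.7 ± 6.23 CPM (SD, n = 3 per genotype; log2 fold change 0.34, SE 0.07, adjusted p = 0.483), the smallest p of the 40 members and the 75th smallest of the 17340 genes. Its adjusted p was 0.0512 in DESeq2 and ran from 0.0512 to 0.981 over the 14 settings.

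Atp6v0a1 encodes the a1 form of the large membrane subunit that lines the proton path. It measured 455, 417 and 463 CPM in WT and 493, 497 and 491 CPM in Abca4KO. The genotypes did not overlap, and the Abca4KO libraries were nearly equal (log2 fold change 0.15, SE 0.08, adjusted p = 0.755). The paralogous a2 form, Atp6v0a2, was 1 of 2 V-ATPase members with a negative value (98.2 ± 5.55 in WT, 90.8 ± 6.60 CPM in Abca4KO; SD, n = 3 per genotype; log2 fold change -0.11, adjusted p = 0.843). Tcirg1, which encodes the a3 form best known from the acid-secreting osteoclast, measured 75.7, 153.0 and 49.3 CPM in WT and 86.2, 146.4 and 116.4 CPM in Abca4KO. Here WT 2 was the highest library of all and WT 3 the lowest. Its log2 fold change of 0.33 (SE 0.39, adjusted p = 0.901) moved to 0.90 without WT 2 and to 0.03 without WT 3.

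The other V0 members had values within the spread of the replicates. Atp6v0b, which encodes the c'' proteolipid, was the most abundant V0 gene per length (99.1 ± 8.04 CPM per kilobase in WT, SD, n = 3). It measured 217.9, 185.4 and 206.7 CPM in WT and 213.2, 216.2 and 234.9 CPM in Abca4KO. The least abundant by this scale was Atp6v0c, which encodes the c proteolipid of the rotating ring (6.46 ± 0.850 CPM per kilobase, SD, n = 3), with 18.7, 24.4 and 22.4 CPM in WT and 29.4, 24.2 and 23.0 CPM in Abca4KO. The genotypes of these 2 genes overlapped, in Atp6v0c with Abca4KO 1 as the highest library. Its low rank is uncertain, because the processed pseudogene Atp6v0c-ps2 is 99.8% identical to it over 465 bases and held 23672 counts over the 6 libraries, against 2668 for Atp6v0c. Atp6v0c-ps2 measured 182.6, 179.7 and 225.0 CPM in WT and 227.6, 208.9 and 242.3 CPM in Abca4KO. With both counts added, 89.9% of the sum was listed under the pseudogene, and the sum measured 217.6 ± 25.8 CPM in WT, against 251.8 ± 16.7 CPM in Abca4KO (SD, n = 3 per genotype; log2 fold change 0.21, adjusted p = 0.742). The sources used here do not give how reads that match both loci were assigned. Atp6v0d1 had a log2 fold change of 0.13 (adjusted p = 0.818) and Atp6v0e2 one of 0.08 (adjusted p = 0.878).

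**Figure D2:**
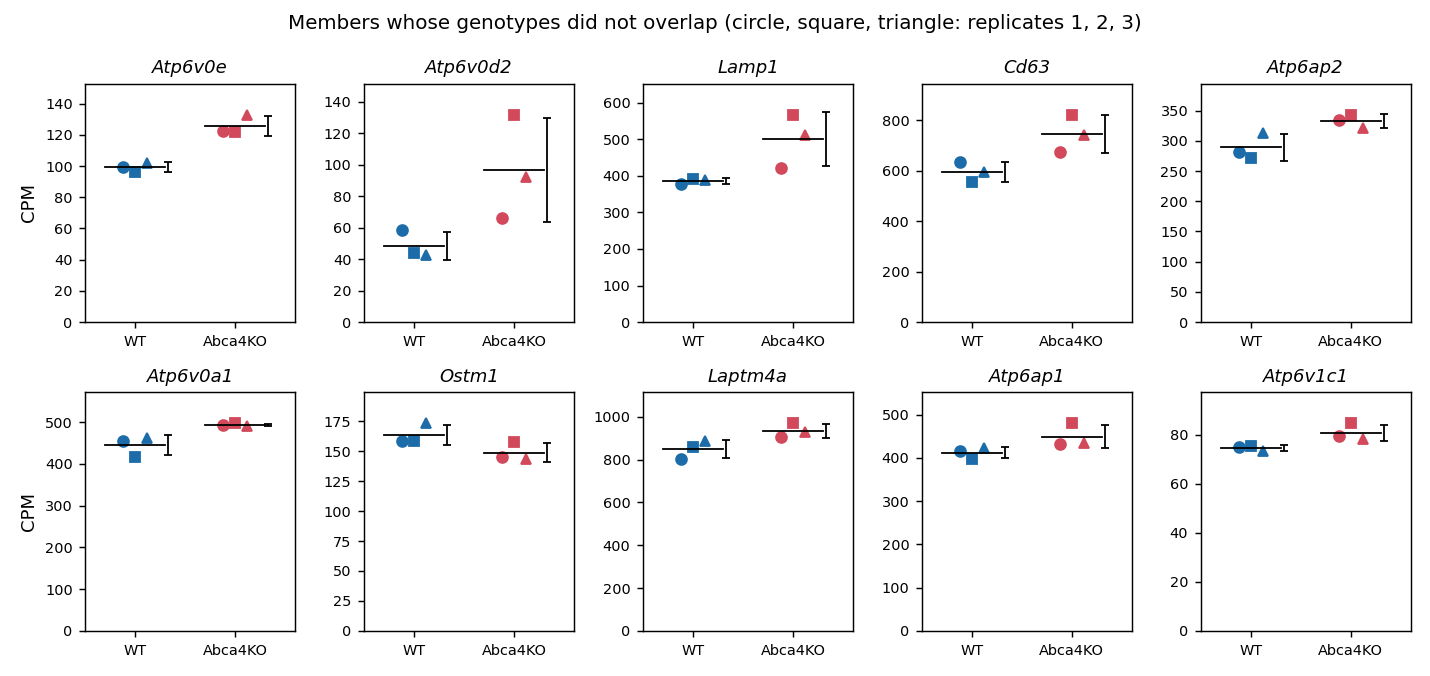
CPM in each library (y axis from 0) for the 10 members whose WT and Abca4KO libraries do not overlap, in order of p. Points are libraries, lines are group means and bars are ± SD (n = 3); the gap between genotypes is wide in Atp6v0e and narrow in Ostm1, where WT 2 and Abca4KO 2 lie side by side.

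Several V-ATPase subunits exist in paralogous forms that fill the same place in the pump, so the balance between forms was compared within each library per gene length. The log2 ratio of Atp6v0d2 to Atp6v0d1 was -1.83, -2.25 and -2.24 in WT and -1.60, -0.90 and -1.32 in Abca4KO. Thus d1 was the more abundant form in every library, and d2 stood at 0.232 of d1 in WT and 0.414 of d1 in Abca4KO on average. The genotypes did not overlap (difference in log2 ratio 0.83, exact two-sided permutation p = 0.1). The log2 ratio of Atp6v0e2 to Atp6v0e was 0.18, 0.18 and 0.27 in WT and 0.0067, -0.0029 and -0.14 in Abca4KO, again without overlap (difference -0.26, exact permutation p = 0.1). That of Atp6v0a2 to Atp6v0a1 was -2.24, -2.22 and -2.20 in WT and -2.40, -2.61 and -2.43 in Abca4KO (difference -0.26, exact permutation p = 0.1), where the WT libraries were nearly equal. The ratio of Tcirg1 to Atp6v0a1 overlapped widely (difference 0.30, exact permutation p = 0.6), and that of Atp6v1g2 to Atp6v1g1 differed by 0.02 (exact permutation p = 1). A p of 0.1 is the smallest that 3 against 3 libraries can give, and over the 5 ratios the lowest adjusted p was 0.167.

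**Figure D3:**
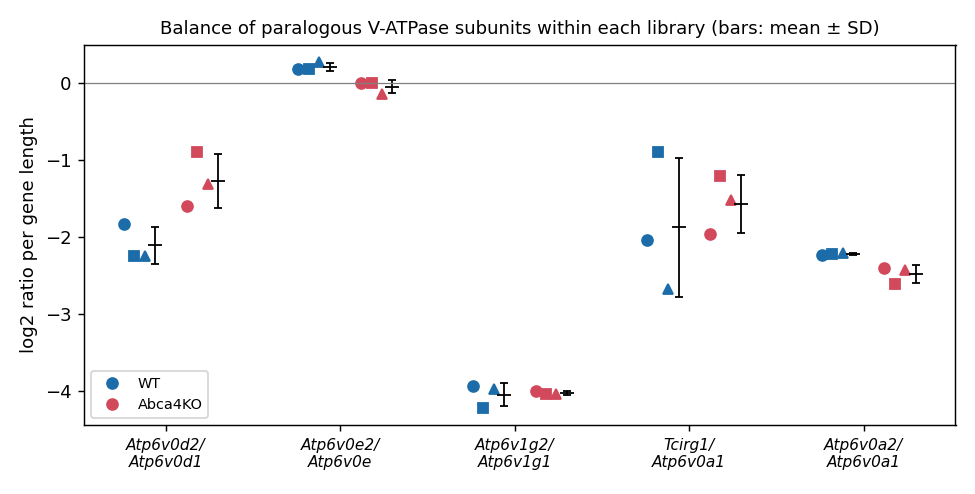
Log2 ratio of the levels per gene length of paralogous V-ATPase subunits (y axis) in each library, WT in blue and Abca4KO in red, with mean ± SD (n = 3). The genotypes do not overlap for d2 against d1, e2 against e1 and a2 against a1, and overlap for the other 2 ratios.

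The V1 sector had a median log2 fold change of 0.07, against 0.15 in V0. Of its 9 genes, 8 were positive, 0 reached an unadjusted p under 0.05 and the values ran from -0.07 to 0.15. Atp6v1a and Atp6v1b2 encode the subunits of the catalytic ring that hydrolyses ATP, and they had log2 fold changes of -0.07 (adjusted p = 0.918) and 0.06 (adjusted p = 0.919). Atp6v1c1 encodes the C subunit, which joins the sectors when the pump assembles. It was the only V1 gene whose genotypes did not overlap, at 75.1, 75.5 and 73.2 CPM in WT and 79.3, 84.6 and 78.3 CPM in Abca4KO (log2 fold change 0.11, SE 0.07, adjusted p = 0.807).

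Atp6v1g1, a subunit of the peripheral stalk, was the most abundant V1 gene per length (159.6 ± 11.3 CPM per kilobase in WT, SD, n = 3). It measured 195.6, 176.5 and 171.4 CPM in WT and 187.7, 202.9 and 207.0 CPM in Abca4KO, with overlap. Its paralogue Atp6v1g2, the form known from neurons, was the least abundant (9.73 ± 1.45 CPM per kilobase), at 28.2, 20.9 and 24.1 CPM in WT and 26.0, 27.5 and 27.8 CPM in Abca4KO. WT 1 was the highest and WT 2 the lowest library of the latter. Its exons overlap those of Nfkbil1 on the opposite strand over 144 bases, and that gene held 1290 counts against 2894 for Atp6v1g2, so its count is uncertain. The remaining V1 genes, Atp6v1d, Atp6v1e1, Atp6v1f and Atp6v1h, had log2 fold changes of 0.07, 0.04, 0.07 and 0.04, with adjusted p-values of 0.882 to 0.955.

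The accessory proteins Atp6ap1 and Atp6ap2 help the V0 sector to assemble, and the genotypes did not overlap in either gene. Atp6ap2, also called the prorenin receptor, measured 281.2, 272.2 and 313.5 CPM in WT and 334.9, 343.1 and 321.2 CPM in Abca4KO (log2 fold change 0.21, SE 0.08, adjusted p = 0.701). WT 3 came within reach of Abca4KO 3. Atp6ap1 measured 416, 397 and 422 CPM in WT and 432, 479.6 and 435 CPM in Abca4KO (log2 fold change 0.12, SE 0.08, adjusted p = 0.805). These genes are on the X chromosome, at 12587801 to 12617049 for Atp6ap2 and 74297097 to 74304721 for Atp6ap1.

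The summed levels of 4 of the 6 role groups did not overlap between the genotypes: V0 (1213 to 1244 CPM in WT, 1328 to 1471 CPM in Abca4KO), the accessory proteins (669 to 736 and 756 to 823 CPM), the glycoproteins (1606 to 1655 and 1761 to 2112 CPM) and the transporters (1298 to 1396 and 1430.1 to 1537 CPM). They overlapped in V1 (1414 to 1586 and 1501 to 1583 CPM) and in the ion channels and exchangers (811 to 865 and 781 to 814 CPM). Abundant genes weigh most in such sums: among the genes grouped as transporters, Laptm4a held 849 CPM and Laptm4b 203 CPM on average in WT. No transported substance is given here for Laptm4a or Laptm4b, and the group was not summed without them. By the median deviation from each gene's mean log2 CPM, the transporters overlapped (-0.062 to -0.022 in WT, -0.059 to 0.129 in Abca4KO). V0, the accessory proteins and the glycoproteins did not overlap by this measure. How often such sums separate in other genes was not tested. Over all 40 members the sums were 7252, 7106 and 7353 CPM in WT and 7635, 8258 and 7921 CPM in Abca4KO, highest in Abca4KO 2. Whether V0 and V1 differed from each other in their response was not tested.

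**Figure D4:**
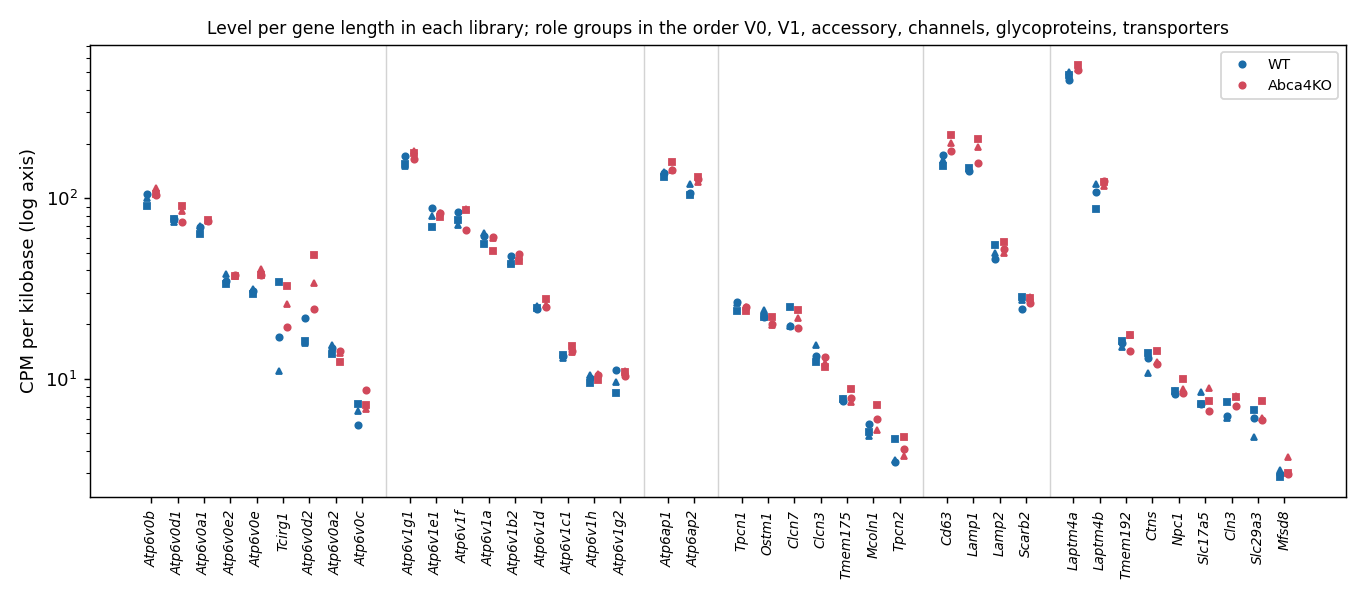
Level per gene length (CPM per kilobase, log axis) of the 40 members in each library, WT in blue and Abca4KO in red, ordered by WT level within each role group. Laptm4a is the highest at 478.9 CPM per kilobase in WT and Mfsd8 the lowest at 2.98. Within a gene the libraries spread most widely in Tcirg1 and Atp6v0d2.

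Among the membrane glycoproteins, Lamp1 and Cd63 were higher in every Abca4KO library. Lamp1 encodes a main protein of the lysosomal membrane and lies on chromosome 8 from 13159161 to 13175338 (plus strand). It measured 378, 392 and 388 CPM in WT and 422, 567 and 512 CPM in Abca4KO. The WT libraries were nearly equal while the Abca4KO libraries spread, with Abca4KO 1 nearest to WT. The means were 386 ± 7.39 and 500.1 ± 73.3 CPM (SD, n = 3 each), a 1.30-fold difference (log2 fold change 0.37, SE 0.11, adjusted p = 0.616). Lamp1 overlaps Grtp1 on the opposite strand over 249 bases, a gene with 2.31% of its counts.

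Cd63, a tetraspanin of late endosomes and lysosomes on chromosome 10 from 128900989 to 128912822 (plus strand), measured 636, 557 and 597 CPM in WT and 673, 822 and 743 CPM in Abca4KO. Its genotypes did not overlap either, and Abca4KO 2 was again the highest library. The log2 fold change was 0.32 (SE 0.10, adjusted p = 0.616), and 0.32 with the counts of the pseudogene Cd63-ps added, which is 98.0% identical over 858 bases and held 4987 counts against 75483. Lamp2, whose splice forms include the receptor of chaperone-mediated autophagy, measured 481 ± 45.2 CPM in WT, against 507 ± 36.6 CPM in Abca4KO (SD, n = 3 per genotype; log2 fold change 0.08, adjusted p = 0.910). Scarb2, which carries the enzyme glucocerebrosidase to lysosomes, was the least abundant of the group per length (26.6 ± 2.02 CPM per kilobase in WT) and measured 153.0, 177.5 and 171.2 CPM in WT and 164.7, 176.6 and 177.8 CPM in Abca4KO (log2 fold change 0.05, adjusted p = 0.934).

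The ion channels and exchangers did not lean one way: 4 of 7 were positive and the median was 0.01 on the log2 scale. Clcn7 encodes the chloride-proton exchanger of lysosomes and Ostm1 its partner subunit. Clcn7 measured 113.3 ± 16.1 CPM in WT, against 114.4 ± 12.6 CPM in Abca4KO (SD, n = 3 per genotype; log2 fold change 0.01, SE 0.13, adjusted p = 0.988). Ostm1 was the only member with all Abca4KO libraries below all WT libraries, at 158.4, 158.4 and 173.1 CPM in WT and 145.0, 157.8 and 143.1 CPM in Abca4KO (log2 fold change -0.14, SE 0.08, adjusted p = 0.777). The separation was narrow, and with median-of-ratios size factors WT and Abca4KO overlapped. They also overlapped with no filter on low counts, with a minimum count of 50 and without WT 3. Clcn3, an endosomal exchanger of the same family, had the lowest value of the 40 members (234.7 ± 26.5 CPM in WT, 210.9 ± 14.3 CPM in Abca4KO; SD, n = 3 per genotype; log2 fold change -0.15, SE 0.10, adjusted p = 0.811).

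The cation channels overlapped between the genotypes. Mcoln1, which encodes a lysosomal calcium channel of the mucolipin family, measured 39.0 ± 3.11 CPM in WT, against 46.2 ± 7.24 CPM in Abca4KO (SD, n = 3 per genotype; log2 fold change 0.24, SE 0.13, adjusted p = 0.761). Tpcn1, which encodes a sodium and calcium channel activated by a phosphoinositide lipid, was the most abundant of the group per length (25.6 ± 1.70 CPM per kilobase in WT), at 225.8, 199.7 and 223.2 CPM in WT and 210.1, 200.3 and 212.5 CPM in Abca4KO. Its paralogue Tpcn2 was the least abundant (3.89 ± 0.668 CPM per kilobase), at 18.2, 24.5 and 18.7 CPM in WT and 21.6, 24.8 and 19.7 CPM in Abca4KO, with WT 2 and Abca4KO 2 highest. Their log2 fold changes were -0.06 and 0.11 (adjusted p = 0.913 and 0.925). Tmem175, which encodes a lysosomal potassium and proton channel, had a log2 fold change of 0.06 (adjusted p = 0.921). It overlaps Dgkq on the opposite strand over 2090 bases, and that gene held 1703 counts against 5232, so its count is uncertain.

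All 9 genes grouped as transporters were positive, from 0.01 to 0.22, with a median of 0.11, and 0 reached an unadjusted p under 0.05. The group also holds Laptm4a, Laptm4b and Tmem192, for which no transported substance is given here. Laptm4a, which encodes a small multispanning protein of late endosomes, was the most abundant of all 40 members per length (478.9 ± 23.9 CPM per kilobase in WT, SD, n = 3). It measured 804, 857 and 887 CPM in WT and 905, 969 and 929 CPM in Abca4KO, without overlap (log2 fold change 0.14, SE 0.08, adjusted p = 0.777). Its relative Laptm4b measured 203.1 ± 31.1 CPM in WT, against 235.6 ± 8.14 CPM in Abca4KO (SD, n = 3 per genotype; log2 fold change 0.21, adjusted p = 0.767). Mfsd8, mutated in a form of neuronal ceroid lipofuscinosis, was the least abundant (2.98 ± 0.115 CPM per kilobase), at 28.1, 27.0 and 29.2 CPM in WT and 27.8, 28.4 and 34.8 CPM in Abca4KO. In Mfsd8 the Abca4KO 3 library was highest and the others were close together (log2 fold change 0.11, adjusted p = 0.884).

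Cln3, another gene of the ceroid lipofuscinoses, whose promoter window held the longer element, measured 38.0 ± 4.44 CPM in WT, against 44.3 ± 3.14 CPM in Abca4KO (SD, n = 3 per genotype; log2 fold change 0.22, SE 0.11, adjusted p = 0.746). Npc1, which exports cholesterol from lysosomes, measured 90.7 ± 2.10 CPM in WT, against 96.6 ± 8.80 CPM in Abca4KO (SD, n = 3 per genotype; log2 fold change 0.09, adjusted p = 0.870). Ctns, the cystine exporter, and Slc17a5, the sialic acid exporter, had log2 fold changes of 0.04 (adjusted p = 0.973) and 0.01 (adjusted p = 0.994). Slc29a3, a nucleoside transporter, and Tmem192, a protein widely used to tag lysosomes, had values of 0.16 (adjusted p = 0.875) and 0.07 (adjusted p = 0.938). Exons of Cln3, Mfsd8 and Npc1 overlap genes on the opposite strand that held 949, 1291 and 2100 counts against 4618, 3272 and 10533, and stretches of Slc29a3 resemble Cep162 (90.3% over 485 bases), so these counts are uncertain.

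Macrophage and microglia markers differed between libraries as well. Of 18 such markers 14 were positive (77.8%), against 47.8% of all genes tested. Their summed level was 3206, 4532 and 2371 CPM in WT and 3957, 7057 and 5406 CPM in Abca4KO, with overlap between the genotypes and 0 markers at 0 counts. Most of the difference in this sum lay in Lyz2 (1614 ± 413 CPM in WT, against 3001 ± 914 CPM in Abca4KO) and Ctss (370 ± 191.9 and 992 ± 352.0 CPM; SD, n = 3 each), the lysozyme and a lysosomal protease of phagocytes. These genes, Trem2 (34.3 ± 8.02 and 58.7 ± 12.9 CPM) and Cd68 (94.6 ± 26.7 and 181.9 ± 47.5 CPM) were the 4 markers with an unadjusted p under 0.05, all without overlap between the genotypes (adjusted p 0.573 to 0.616). These 4 were 22.2% of the markers, against 3.15% of all genes higher at an unadjusted p under 0.05 and 5.93% higher without overlap. Lyz2, Ctss and Trem2 are named because of their values. The 4 markers with a negative log2 fold change were Csf1r (580 ± 13.7 and 534 ± 14.8 CPM), Ptprc (131.7 ± 129.5 and 77.9 ± 19.9 CPM), Cx3cr1 (19.6 ± 12.5 and 17.3 ± 1.81 CPM) and Aif1 (10.8 ± 12.6 and 7.99 ± 4.03 CPM). Csf1r lay lower in Abca4KO without overlap, the only marker to do so (5.56%, against 6.85% of all genes). The rest, Adgre1, C1qa, C1qb, C1qc, Itgam, Tyrobp, Fcer1g, Mrc1, Cd14 and Laptm5, were positive, with overlap between the genotypes. For Ptprc and Cx3cr1 the WT mean was raised by WT 2, which held 279.6 CPM of Ptprc, against 77.1 and 38.4 CPM in the other WT libraries, and 33.3 CPM of Cx3cr1, against 16.7 and 8.93 CPM. From high to low, the Abca4KO libraries stood in the order replicates 2, 3 and 1 in the marker sum and in 15 of the 18 markers. The same order was found in 12 of 40 members (30%), against 21.7% of all genes tested, and these included Atp6v0d2, Tcirg1, Lamp1 and Cd63 but also Clcn7, at a log2 fold change of 0.01. Among the WT libraries the marker sum was highest in WT 2 (4532 CPM), above Abca4KO 1 (3957 CPM). WT 2 was also the highest WT library in Tcirg1 and Lamp1. It was not in Atp6v0d2 (43.8 CPM, against 58.6 CPM in WT 1) or in Cd63 (557 CPM, the lowest of the 6 libraries). Endothelial markers (12 of 12 positive, median log2 fold change 0.60) summed to 446, 604 and 363 CPM in WT and 602, 603 and 911 CPM in Abca4KO. The sums overlapped narrowly, at WT 2, and Abca4KO 3 was highest. It was the highest Abca4KO library in 12 of 40 members (30%), among them Atp6v0e, and in 29.9% of all genes. Of the WT libraries, WT 2 was highest in the endothelial sum and lowest in Atp6v0e (95.99 CPM). Of the 12, 6 (50%) were higher in Abca4KO at an unadjusted p under 0.05, against 3.15% of all genes. All Abca4KO libraries lay above all WT libraries in 4 of the 12 (33.3%), against 5.93% of all genes. Fibroblast and sclera markers (8 of 8 positive) summed to 1417 to 1695 CPM in WT and 1728 to 2168 CPM in Abca4KO, without overlap. Of the 8, 3 (37.5%) were higher at an unadjusted p under 0.05, and 3 (37.5%) lay higher without overlap. In both lists 0 markers passed the threshold on the adjusted p. No endothelial, fibroblast or sclera marker was at 0 counts. The part of these cell types in the values of the members was not tested.

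**Figure D5:**
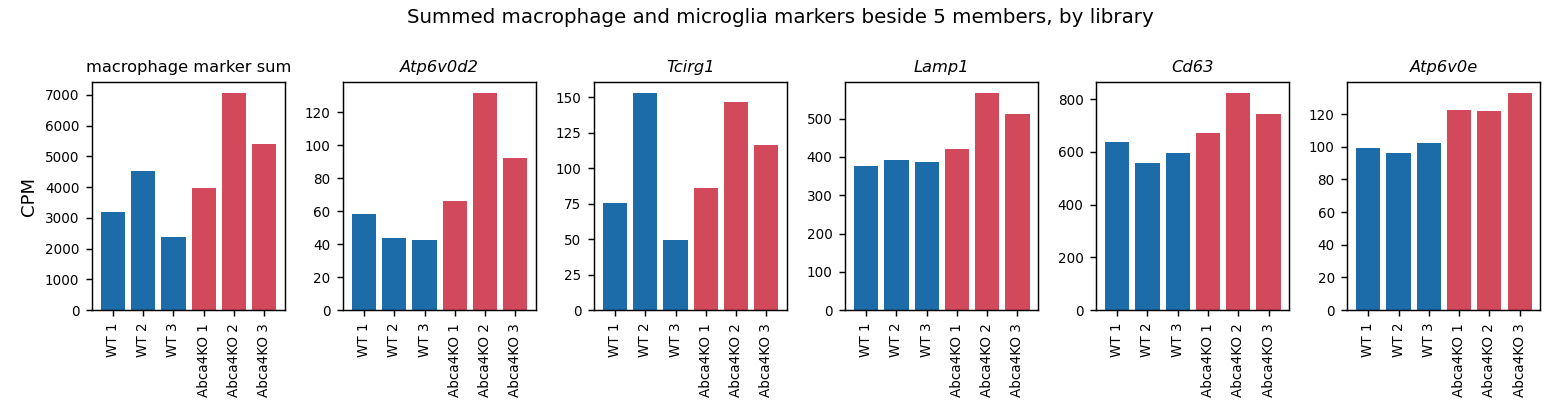
CPM by library (bars from 0, WT in blue, Abca4KO in red) of the sum of 18 macrophage and microglia markers and of 5 members. The 5 members were selected with their values in view. Abca4KO 2 is the highest of the Abca4KO libraries in the marker sum, Atp6v0d2, Tcirg1, Lamp1 and Cd63, and in Atp6v0e these libraries lie at 122.4, 121.7 and 132.8 CPM. Of the WT libraries, WT 2 is highest in the marker sum, Tcirg1 and Lamp1, and not in Atp6v0d2, Cd63 or Atp6v0e.

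Among related genes outside the 40, values of both signs were found. Over all genes tested, 47.8% were positive and the median was -0.01 on the log2 scale. Of 17 further V-ATPase genes (other paralogues, assembly factors and regulators), 13 were tested, 7 of them positive (53.8%), and the median was 0.02 on the log2 scale. At an unadjusted p under 0.05, Rogdi was higher (70.1 ± 4.11 in WT, 81.6 ± 2.47 CPM in Abca4KO), and Dmxl1 (83.0 ± 5.36 and 66.8 ± 6.94 CPM) and Ccdc115 (11.3 ± 0.815 and 8.69 ± 0.386 CPM) were lower (SD, n = 3 each; adjusted p 0.625 to 0.701). Dmxl1 and Rogdi belong to the rabconnectin complex that rejoins V1 with V0, and Ccdc115 is an assembly factor of the pump. Of 42 further lysosomal membrane genes tested, 29 were positive (69.0%) with a median of 0.08. The 20 members outside the V-ATPase had a median of 0.08 as well, with 85% positive. Among the further genes P2rx4, an ATP-gated channel, measured 25.01 ± 5.13 in WT and 37.0 ± 7.22 CPM in Abca4KO, and Slc37a2, a sugar phosphate transporter, 108.4 ± 1.92 and 92.3 ± 1.07 CPM (SD, n = 3 each; adjusted p = 0.639 and 0.616). Of 5 regulators of lysosomal genes, 0 reached an unadjusted p under 0.05, among them Tfeb (28.0 ± 3.70 and 29.7 ± 2.30 CPM), Tfe3 (40.7 ± 4.54 and 45.2 ± 3.91 CPM) and Mitf (194.3 ± 10.95 and 177.5 ± 10.6 CPM; SD, n = 3 each). Whether the members differ from these further genes was not tested.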

How the data were processed

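Bulk RNA-seq counts of RPE from 3 WT and 3 Abca4KO mice were used. The authors deposited raw read counts per Ensembl gene, with each gene's coordinates and length; per the submitters' processing notes, STAR and HTSeq were used with mm10, and no version is listed. Neither the annotation release nor the use of strand is given in the sources used here. In edgeR 4.0.16 (R 4.3.3), low genes were removed by filterByExpr (minimum count 10), libraries were scaled by TMM, and the genotypes were compared by the quasi-likelihood test (2-sided, all 6 libraries), with Benjamini-Hochberg adjustment over 17340 genes and a threshold of 0.05. All 40 members passed the filter. Each SE was derived from the log2 fold change and its F statistic. Alternatives were DESeq2 1.42.0, limma 3.58.1, other size factors and filters, a block for the replicate number and omission of each library. WT 2 and Abca4KO 1, which stood apart in marker genes of these same data, were also left out together. A further setting, chosen after the data were seen, added the counts of near-identical copies. The fits were tested on simulated data. Overlaps and similar transcripts (at least 90% over 200 bases, BLAST+ 2.17.0) come from GENCODE M21, in which 38 of 40 members had the coordinates of the table, and coordinates are printed as deposited. Promoter windows are from RefSeq. The members and lists were chosen with earlier results of these data known. Values per library are given for members with an unadjusted p under 0.05, members whose genotypes did not overlap, the highest and lowest member per length of each role group, and Abca4. Those of Tcirg1 and Atp6v0c-ps2, and the naming of Tfeb, Tfe3 and Mitf, were selected with their values in view. The level of 3 counts given per library covers counting error only.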

Additional observations from a re-analysis of the deposited data

How the results depend on the processing

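The number of genes past the threshold depended on the test. It was 8 in edgeR, 114 in DESeq2, 31 in limma-voom with sample weights, 19 with no filter on low counts, 3 to 11 with single libraries left out and 190 without WT 2 and Abca4KO 1 together. Members past it numbered 0, except for 1 (Atp6v0d2) in DESeq2 and 1 (Atp6v0d2, adjusted p = 0.0472) without WT 2 and Abca4KO 1 together, and were 0 each time a single library was left out. Positive members numbered 32 to 35 and their median log2 fold change was 0.08 to 0.15 in those fits. Members whose genotypes did not overlap numbered 11 to 18 there and 26 without WT 2 and Abca4KO 1 together. Fewer libraries separate more often by construction: without that pair, 24% of all genes lay higher and 24.3% lower in Abca4KO with no overlap. The 18 were reached without WT 2 (13 higher, where 14% of all genes were, and 5 lower, where 14% were) and without Abca4KO 1 (16 higher, where 12.6% were, and 2 lower, where 13% were).

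Of the 560 values of single members under other settings, 542 kept their direction and side of the threshold, 16 changed sign and 2, those of Atp6v0d2, passed the threshold. The sign changes were in 9 members, each with a log2 fold change of at most 0.07 in size with all libraries. When single libraries were left out, log2 fold changes ran from -0.063 to 0.14 for Clcn7, -0.011 to 0.094 for Scarb2, -0.11 to 0.10 for Slc17a5, -0.039 to 0.13 for Atp6v1e1, -0.058 to 0.12 for Ctns, -0.12 to 0.0065 for Atp6v1a and -0.0064 to 0.11 for Tmem175. Atp6v1e1 was at -0.043 in limma-voom and, without WT 2 and Abca4KO 1 together, at -0.067, with Atp6v1b2 at -0.021 and Atp6v1h at -0.021. The difference in log2 ratio of Atp6v1g2 to Atp6v1g1 ran from -0.068 to 0.073 and that of Tcirg1 to Atp6v0a1 from -0.10 to 0.79. The cause of these changes was not tested.

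With the replicate number as a block, 9 genes and 0 members passed the threshold, 35 members were positive and the median was 0.11. The deviations of same-numbered libraries correlated at 0.17, 0.34 and -0.08, and not every library correlated best with its own number, so the numbers were not taken to pair the samples.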
